A study of Mus musculus with 9 samples.

Results

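The transcription factor Nrf2, encoded by Nfe2l2, and 9 of its textbook antioxidant targets were followed in colonic intestinal epithelial cells (IECs). The 9 targets were Gclc, Gclm, Gpx2, Txnrd1, Prdx1, Prdx6, Srxn1, Nqo1 and Hmox1. These 10 genes were chosen by name, out of 46095 gene symbols in the table, and all 10 were found and passed the filter on low counts. Deletion of Setd2 on top of Smad4 went with higher Nqo1 and Srxn1 and with lower Prdx6, while the other 7 genes did not pass the test. Nqo1 was 2.35-fold higher, Srxn1 was 1.35-fold higher and Prdx6 was 1.71-fold lower.

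In resting cells, Nrf2 protein is held by the sensor Keap1, which passes it to a Cul3 ubiquitin ligase for degradation. Oxidants and electrophiles modify cysteines of Keap1, so that Nrf2 accumulates, pairs with a small Maf protein and binds antioxidant response elements near its target genes. Its targets make glutathione, feed the thioredoxin system, reduce quinones and break down haem. Nrf2 is controlled largely at the level of the protein, which RNA-seq does not measure. In the colon, the epithelium meets oxidants from the lumen and from infiltrating immune cells, and DSS injury adds to both.

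The Smad4 Vil-KO group (4 libraries) carried floxed Smad4 deleted by Villin-Cre, and the Smad4 Vil-KO;Setd2 Vil-KO group (DDKO, 5 libraries) also carried floxed Setd2 deleted by the same Cre. Villin-Cre acts in the intestinal epithelium. All mice were on the C57BL/6j background and were injected with the carcinogen AOM (10 mg/kg) when 8 weeks old. DSS (2%) followed 5 days later, in the drinking water for 5 days, and IECs were released from the colon with EDTA at 10 days of this treatment. No untreated, wild-type or Setd2-only libraries were analysed here, so the comparison shows what the added Setd2 deletion went with in treated Smad4-deficient epithelium. The labels do not name the animal behind each library, so p-values measure the spread between these samples.

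Each library held 12487129 to 17120202 counts, so that 1 count was worth 0.0593 to 0.0793 CPM, the count relative to the library total after TMM scaling. Setd2, the gene deleted in DDKO alone, was at 53.8 to 86.9 CPM there, against 99.0 to 119.9 CPM in Smad4 Vil-KO. Smad4, floxed in both groups, was at 54.2 to 92.6 CPM in Smad4 Vil-KO and at 38.2 to 114 CPM in DDKO. DDKO replicates 2 and 5 held the most of both transcripts in their group, with Setd2 at 86.9 and 75.9 CPM and Smad4 at 114 and 98.6 CPM. Epithelial markers were abundant in both groups, at a sum of 12934 to 14940 CPM over 8 genes against 12306 to 14589 CPM. The summed Y-linked counts were 4907, 4745 and 3857 in DDKO replicates 1, 2 and 5 and at most 28 in the other 6 libraries. Since all libraries with many Y-linked counts were DDKO, values from the other 6 libraries are given beside the results whose call they change. Of DDKO, these 6 libraries hold replicates 3 and 4 alone. Estimates, SE and adjusted p from them rest on fewer DDKO libraries than those over all libraries.

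Short stretches of promoter are shown where they hold the letters of the element that Nrf2 is known to bind. The antioxidant response element core was searched as TGACNNNGC or TGAGNNNGC on both strands, in RefSeq windows from 250 bases before to 50 bases after each annotated start (GRCm38.p6). Windows were found for 7 of the 10 genes (Nfe2l2, Gclm, Gpx2, Txnrd1, Prdx1, Srxn1 and Nqo1), 9 windows in all because Txnrd1 has 3. Srxn1, Prdx1, Gclm, Txnrd1 and Nfe2l2 held a match upstream of the start. The stretches are shown 5′ to 3′ on the strand of the gene, with the match in capitals.
Srxn1, chr2:152105459-152105507, + strand, first base of the match 45 bases before the start: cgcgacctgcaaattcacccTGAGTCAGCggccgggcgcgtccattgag
Srxn1, chr2:152105346-152105394, + strand, 158 bases before the start: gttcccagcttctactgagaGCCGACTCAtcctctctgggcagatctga
Prdx1, chr4:116685446-116685494, + strand, 133 bases before the start: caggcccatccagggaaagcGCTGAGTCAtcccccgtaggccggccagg
Gclm, chr3:122245403-122245451, + strand, 134 bases before the start: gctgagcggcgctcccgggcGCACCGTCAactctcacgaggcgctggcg
Txnrd1, chr10:82859094-82859142, + strand, 92 bases before the start: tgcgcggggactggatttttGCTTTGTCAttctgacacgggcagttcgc
Nfe2l2, chr2:75704875-75704913, - strand, 240 bases before the start: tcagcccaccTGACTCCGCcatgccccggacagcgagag

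The Srxn1 match 45 bases before the start and the upstream Prdx1 match also overlapped TGANTCA, the letters bound by AP-1 factors. Srxn1 and Prdx1 each held 1 further match after the start, which is not shown and did not overlap TGANTCA. Of the 9 windows, 5 (55.6%) held at least 1 match, against 27.8% of all 32851 windows of 300 bases. No match lay within the windows of Nqo1 and Gpx2, which says only that these letters were not in this window. A match is a description of sequence, and Nrf2 binding was not measured.

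Among the 10, 3 genes passed an adjusted p of 0.05, with 2 higher and 1 lower in DDKO (edgeR quasi-likelihood test, Benjamini-Hochberg over 14593 genes). Across all genes tested, 13.3% were called, 6.76% as higher and 6.54% as lower in DDKO. The same 3 genes, Nqo1, Srxn1 and Prdx6, were the ones whose libraries did not overlap between the genotypes, and 17.2% of all genes did not overlap (8.34% with DDKO higher and 8.87% with DDKO lower). The fitted log2 fold change was above 0 for 8 of the 10, with a median of 0.26, where the median over all genes was -0.00059. An unadjusted p under 0.05 was reached by 5 of the 10 and by 30.6% of all genes. Where a call needed a change of more than 1.5-fold and p below 0.05 before adjustment, Nqo1 (higher) and Prdx6 (lower) were kept, against 13.8% of all genes (7.54% higher and 6.24% lower).

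**Figure D1:**
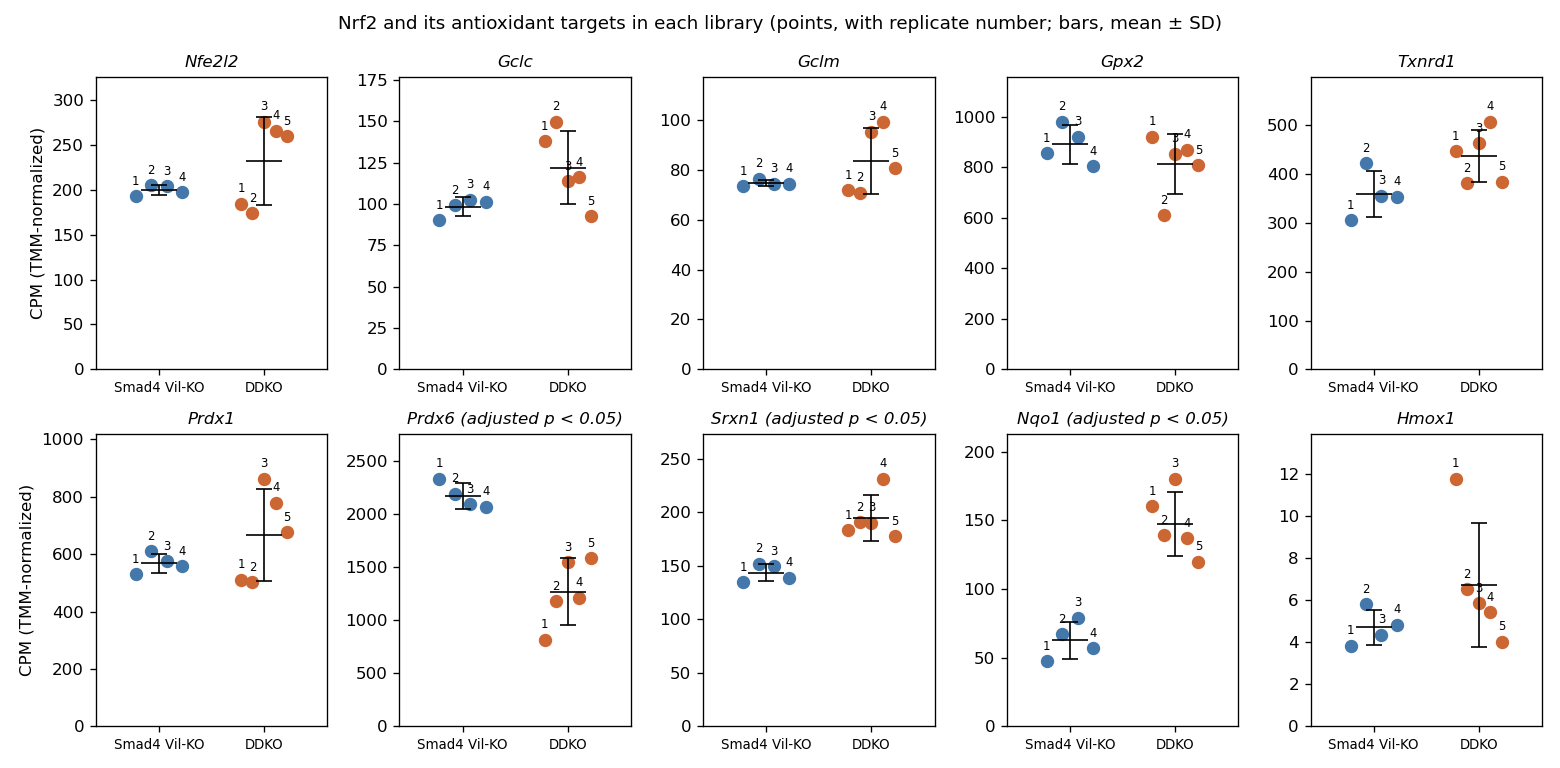
Level of each of the 10 genes (y axis, CPM after TMM scaling, each panel from 0) in the Smad4 Vil-KO (blue) and DDKO (orange) libraries. Points are libraries with their replicate number, and bars are the mean ± SD; Nqo1 and Srxn1 sit higher in every DDKO library and Prdx6 lower in every DDKO library than in any Smad4 Vil-KO library.

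Nqo1 encodes the quinone reductase that turns quinones into hydroquinones without releasing radicals, and it is a common readout of Nrf2. The gene spans chr8:107388225-107403206 on the - strand of GRCm38. In the Smad4 Vil-KO libraries, Nqo1 was at 47.5, 67.0, 79.3 and 57.1 CPM in replicates 1 to 4. In the DDKO libraries, it was at 160.2, 139, 180.4, 137 and 119.8 CPM in replicates 1 to 5. The lowest DDKO library was above the highest Smad4 Vil-KO library, and the means were 62.7 ± 13.6 (SD, n = 4) and 147 ± 23.4 CPM (SD, n = 5). The log2 fold change was 1.23 (SE 0.16, 95% interval 0.88 to 1.58), with an adjusted p of 0.00121 from edgeR. This call held in all 19 alternative fits, with log2 fold changes from 1.13 to 1.37 and adjusted p up to 0.00720 by the tool of each fit. The libraries without many Y-linked counts gave 1.34 (SE 0.18).

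Srxn1 encodes sulfiredoxin, which restores over-oxidised peroxiredoxins at the cost of ATP. The gene lies at chr2:152105516-152111376 on the + strand, next to the stretches shown above. Its level was 135, 152, 149 and 139 CPM in Smad4 Vil-KO and 183, 191, 190.3, 231 and 178 CPM in DDKO. The groups did not overlap, and the increase was modest next to that of Nqo1. Means were 144 ± 8.36 (SD, n = 4) and 195 ± 21.2 CPM (SD, n = 5), for a log2 fold change of 0.44 (SE 0.09, edgeR adjusted p of 0.0113). All 19 alternative fits kept the call at an adjusted p under 0.05, with log2 fold changes from 0.38 to 0.56. DDKO replicate 4 was the highest library, and without it the log2 fold change was the lowest of this range.

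Prdx6, a peroxiredoxin with a single active cysteine that also reduces phospholipid hydroperoxides, went the other way. The gene spans chr1:161240112-161251219 on the - strand. The Smad4 Vil-KO libraries held 2333, 2192, 2092 and 2069 CPM, a range of little spread. The DDKO libraries held 816, 1177, 1548, 1211 and 1585 CPM, every one of them lower. The means were 2172 ± 120.03 (SD, n = 4) and 1267.5 ± 314 CPM (SD, n = 5), for a log2 fold change of -0.78 (SE 0.17, 95% interval -1.15 to -0.40, edgeR adjusted p of 0.0152). With a term for Y-linked counts, the log2 fold change was -0.65 and edgeR's adjusted p was 0.0984, while among the 6 libraries without many Y-linked counts it was -0.65 with an adjusted p of 0.00579. The related genes Prdx6b (at most 6 counts in any library) and Prdx6-ps2 (at most 2 counts) were near 0, against at least 12758 counts of Prdx6.

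Prdx6 had the highest mean of the 10 genes per length in both groups, although it was below Gpx2 in DDKO replicates 1 and 4 and below Prdx1 in replicate 4. Per kb of exon, its mean was 452 CPM in Smad4 Vil-KO and 264 CPM in DDKO, which ranked it 54 to 64 of 33963 genes in the Smad4 Vil-KO libraries and 84 to 185 in the DDKO libraries. The next in order per kb of exon were Gpx2 (277 and 253 CPM) and Prdx1 (187 and 219 CPM). The exon union of Gpx2 is 3222 bases, its whole span, so no base of it counted as intron, which lowers its level per kb. The order of Prdx6 and Gpx2 in DDKO rests on this length. Nfe2l2 (52.7 and 61.2), Srxn1 (51.0 and 69.1) and Txnrd1 (50.7 and 61.7 CPM per kb) overlapped in their libraries in both groups. Nqo1 rose within this order, from 40.4 to 94.9 CPM per kb, which moved it from ranks 942 to 1729 to ranks 353 to 620. Gclc (26.1 and 32.4), Gclm (11.9 and 13.3) and Hmox1 (2.69 and 3.84 CPM per kb) were the lowest in both groups.

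The peroxiredoxin pool was examined after these values were seen, and is given as a description. In the Smad4 Vil-KO libraries, Prdx6 made up 54.5%, 51.8%, 50.9% and 52.7% of the summed CPM per kb of Prdx1 to Prdx6. In the DDKO libraries, this share was 31.8%, 40.2%, 37.8%, 33.7% and 41.5%, lower in every one of them at the exon lengths used. Prdx6 was still the highest single peroxiredoxin in each DDKO library but replicate 4, where it stood at 252 and Prdx1 at 256 CPM per kb. The other 5 peroxiredoxins together stood at 409 ± 17.004 (SD, n = 4) and 444 ± 76.2 CPM per kb (SD, n = 5), with overlapping libraries. The pool of 6 was 861 ± 32.8 and 708 ± 132 CPM per kb. Among the other peroxiredoxins, the one of the endoplasmic reticulum, Prdx4, was called higher (log2 fold change 0.49, edgeR adjusted p of 0.0445), a call that 9 of 19 alternatives kept and that was lost in the 6 libraries without many Y-linked counts (0.22, adjusted p of 0.180).

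**Figure D2:**
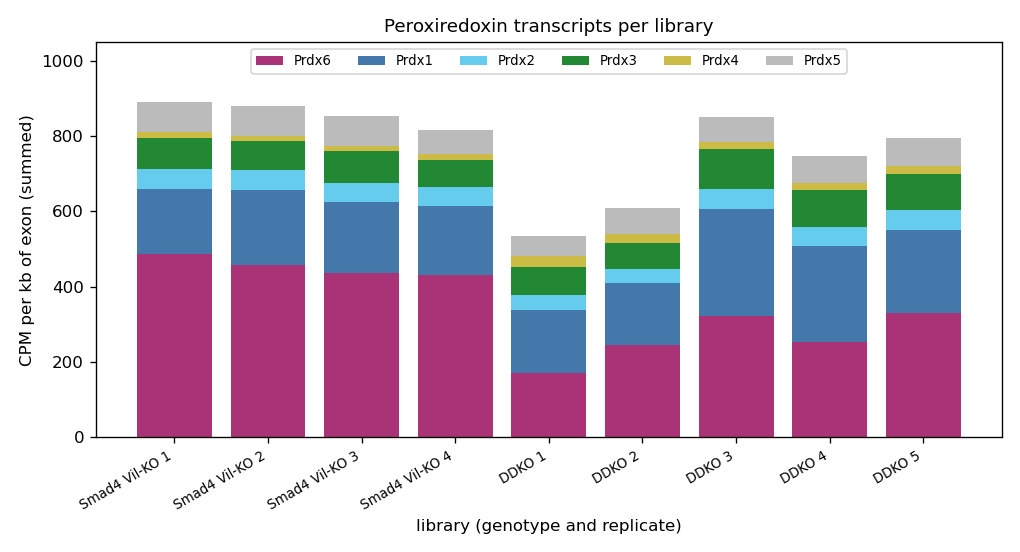
Summed level of the 6 peroxiredoxin genes (y axis, CPM per kb of exon, from 0) in each library (x axis, genotype and replicate), with 1 colour per gene. Prdx6, at the base of each bar, takes 50.9% to 54.5% of the sum in the Smad4 Vil-KO libraries and 31.8% to 41.5% in the DDKO libraries.

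Nfe2l2 itself (chr2:75675513-75704641, - strand) did not pass the test. Its level was 193, 205, 204 and 198 CPM in Smad4 Vil-KO and 185, 174, 276, 266 and 260.1 CPM in DDKO. DDKO replicates 1 and 2 were below every Smad4 Vil-KO library, and replicates 3, 4 and 5 were above every one of them. Its log2 fold change was 0.21 (SE 0.14, 95% interval -0.10 to 0.52, edgeR adjusted p of 0.327). Among the 6 libraries without many Y-linked counts it was 0.44 (SE 0.08), with an adjusted p of 0.00480. A term for these counts over all 9 libraries gave 0.44 as well, with an adjusted p of 0.0879.

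Prdx1, a major cytosolic peroxiredoxin that removes hydrogen peroxide with thioredoxin, had the same order of libraries as Nfe2l2. It stood at 531, 609.7, 575 and 558 CPM in Smad4 Vil-KO and at 511, 503, 862, 779 and 676 CPM in DDKO (chr4:116685544-116700822, + strand). Again DDKO replicates 1 and 2 were below and replicates 3 to 5 above all Smad4 Vil-KO libraries. The log2 fold change was 0.23 (SE 0.16, edgeR adjusted p of 0.352), and it was 0.54 (SE 0.09, adjusted p of 0.00459) in the 6 libraries without many Y-linked counts. A fit with a term for these counts gave 0.53, with an adjusted p of 0.0369.

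Glutathione synthesis starts with glutamate-cysteine ligase, built from the catalytic subunit Gclc and the modifier subunit Gclm. Gclc (chr9:77754535-77794485, + strand) stood at 90.1, 99.3, 103 and 101 CPM in Smad4 Vil-KO and at 138, 149.7, 114, 116 and 92.4 CPM in DDKO. DDKO replicates 1 to 4 were above every Smad4 Vil-KO library, and replicate 5 lay within their range. For Gclc, the log2 fold change was 0.31 (SE 0.13, edgeR adjusted p of 0.124), and without DDKO replicate 5 it was 0.41 with an adjusted p of 0.0229. In that fit, 4 of the 10 genes were called, 3 higher and 1 lower, against 18.6% of all genes (9.52% higher and 9.08% lower).

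Gclm (chr3:122245557-122270732, + strand) stood at 73.6, 76.5, 74.4 and 74.5 CPM in Smad4 Vil-KO and at 71.9, 70.8, 95.4, 99.3 and 80.7 CPM in DDKO. The 4 Smad4 Vil-KO libraries had a coefficient of variation of 1.67%, and the DDKO libraries fell on both sides of them, in the pattern of Nfe2l2 and Prdx1. For Gclm, the log2 fold change was 0.16 (SE 0.11, edgeR adjusted p of 0.341). It was 0.39 (SE 0.07, adjusted p of 0.00676) in the 6 libraries without many Y-linked counts and 0.38 (adjusted p of 0.0231) with the term for them. Exons of Gclm overlap those of Gm17494 on the other strand and of the pseudogene Gm6061 (44 to 70 counts, against at least 940 for Gclm), and whether the counting used strand is not stated.

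The ratio of Gclm to Gclc counts within a library does not depend on the scaling of libraries. It was 0.817, 0.771, 0.726 and 0.736 in the Smad4 Vil-KO libraries. In the DDKO libraries it was 0.522, 0.473, 0.838, 0.854 and 0.873, so that replicates 1 and 2 had less modifier per catalytic subunit transcript, and replicates 3 to 5 had more, than any Smad4 Vil-KO library. The mean log2 ratio differed by -0.15 between the groups (two-sided exact permutation test over all assignments of the 9 libraries, p = 0.468). It was -0.05 without DDKO replicate 1, -0.01 without replicate 2, and -0.22 to -0.23 without replicate 3, 4 or 5. The direction was opposite in the 6 libraries without many Y-linked counts, where the difference was 0.15 (exact permutation p = 0.133).

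The ratio of the sensor Keap1 to Nfe2l2 was 0.387 ± 0.0161 (SD, n = 4) in Smad4 Vil-KO and 0.342 ± 0.116 (SD, n = 5) in DDKO. In the DDKO libraries the ratio was 0.489, 0.438, 0.237, 0.241 and 0.305, on both sides of the Smad4 Vil-KO range of 0.365 to 0.399. The difference in the mean log2 ratio was -0.24 (two-sided exact permutation test, p = 0.341, and adjusted p = 0.468 over the 2 ratios tested). The smallest p that 4 against 5 libraries allow is 0.00794. Leaving out single libraries gave -0.13 without DDKO replicate 3 or 4 and -0.39 and -0.35 without replicates 1 and 2. In the 6 libraries without many Y-linked counts the difference was -0.69 (exact permutation p = 0.0667, the smallest that 4 against 2 libraries allow). Keap1 alone was at 77.5 ± 4.03 (SD, n = 4) and 75.1 ± 10.8 CPM (SD, n = 5), with a log2 fold change of -0.05 (95% interval -0.28 to 0.19) that turned sign in 2 of 19 alternatives.

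Txnrd1, cytosolic thioredoxin reductase, spans chr10:82833951-82897712 on the + strand. It stood at 306, 422, 356 and 354 CPM in Smad4 Vil-KO and at 447, 382, 464, 507 and 385 CPM in DDKO. DDKO replicates 1, 3 and 4 were above all Smad4 Vil-KO libraries, and replicates 2 and 5 lay within their range. Its log2 fold change was 0.28 (SE 0.12, 95% interval 0.02 to 0.54), with an edgeR adjusted p of 0.133. In the 6 libraries without many Y-linked counts it was 0.44 (SE 0.12, adjusted p of 0.0311), and with a term for them 0.43 (adjusted p of 0.0702).

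Gpx2, the glutathione peroxidase typical of the gut epithelium, was abundant in all libraries (chr12:76792333-76795554, - strand). It stood at 857, 981, 922 and 806 CPM in Smad4 Vil-KO and at 922, 611, 855, 870.2 and 810.1 CPM in DDKO. DDKO replicate 2 was below all other libraries, and the other 4 lay within the Smad4 Vil-KO range. The log2 fold change of -0.13 (SE 0.12, 95% interval -0.40 to 0.14, edgeR adjusted p of 0.493) was not called in any of the 19 alternatives. It was -0.04 without DDKO replicate 2 and also in the 6 libraries without many Y-linked counts.

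Hmox1 encodes haem oxygenase 1, which breaks haem down to biliverdin, iron and carbon monoxide. It was the least abundant of the 10 genes, with 52 to 184 counts per library (chr8:75093621-75100589, + strand). Its level was 3.84, 5.81, 4.35 and 4.83 CPM in Smad4 Vil-KO and 11.8, 6.53, 5.86, 5.42 and 4.03 CPM in DDKO. DDKO replicate 1 was the highest, replicates 1 to 3 were above every Smad4 Vil-KO library, and replicates 4 and 5 were within their range. The log2 fold change was 0.52 with a wide interval (-0.13 to 1.16, edgeR adjusted p of 0.255), and no alternative called it. Without single libraries the estimate ran from 0.22 to 0.67, and it was 0.26 in the 6 libraries without many Y-linked counts.

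**Figure D3:**
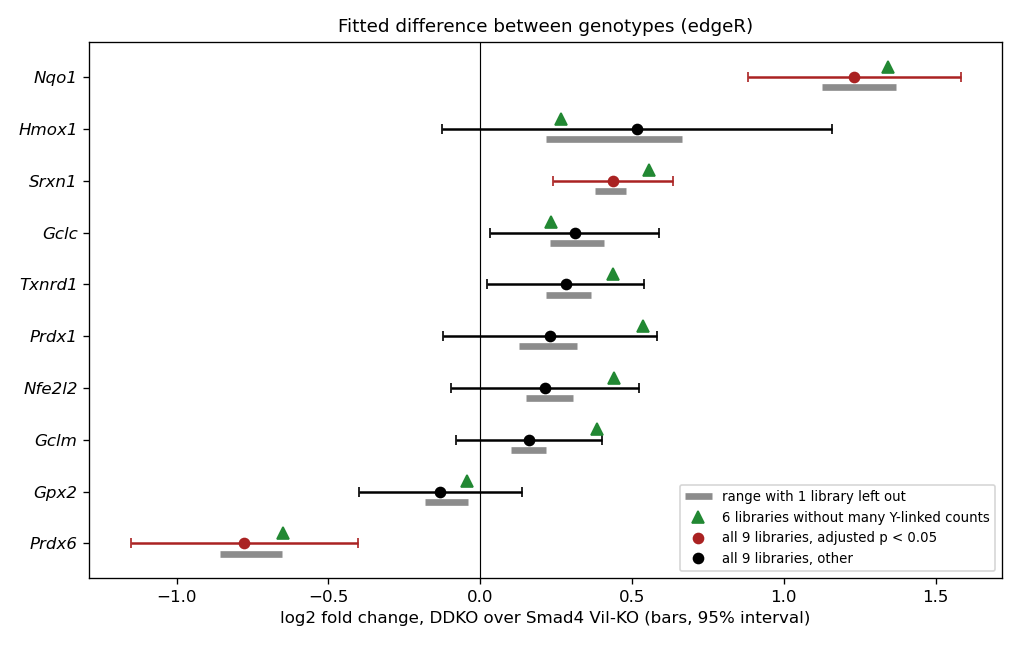
Log2 fold change of DDKO over Smad4 Vil-KO (x axis) for each of the 10 genes (rows). Circles with bars are the edgeR estimate and its 95% interval over all 9 libraries, red where the adjusted p was under 0.05, grey bars are the range with 1 library left out, and triangles are the 6 libraries without many Y-linked counts. Nqo1 (1.23), Srxn1 (0.44) and Prdx6 (-0.78) are red, and the triangles lie to the right of the circles for every gene but Gclc and Hmox1.

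With single libraries left out, the log2 fold change ran from 0.15 to 0.30 for Nfe2l2, from 0.13 to 0.32 for Prdx1 and from 0.10 to 0.22 for Gclm, and edgeR called none of these 3 in those fits. The spread of the 10 genes was wider among the DDKO libraries than among the Smad4 Vil-KO libraries for 8 of the 10, by coefficient of variation, as it was for 73.9% of all genes tested. For Nfe2l2 it was 2.86% and 20.97%, for Prdx1 5.81% and 24.0%, for Gclm 1.67% and 15.8%, and for Prdx6 5.53% and 24.8%. Nqo1 (21.7% and 15.9%) and Txnrd1 (13.2% and 12.3%) were the exceptions. Among the 6 libraries without many Y-linked counts, 7 of the 10 genes were called, 6 higher and 1 lower, where 19.4% of all genes were called (9.29% higher and 10.1% lower). Of DDKO, these libraries hold replicates 3 and 4 alone, and so leave out replicates 1 and 2, where Nfe2l2, Gclm and Prdx1 were low. With a term for Y-linked counts over all 9 libraries, 4 of the 10 were called, all of them higher (Nqo1, Srxn1, Gclm and Prdx1). In that fit 8.81% of all genes were called (4.47% higher and 4.33% lower). DDKO replicate 5, with many Y-linked counts, and replicates 3 and 4, without them, were above the Smad4 Vil-KO libraries for Nfe2l2, Gclm and Prdx1. A cause of this pattern was not tested. Over all genes, pairs of DDKO libraries across replicates 1 and 2 and replicates 3 to 5 differed by a chi-square of 42.1 to 63.1 per gene, and pairs within these subsets by 9.22 to 26.9. Pairs of Smad4 Vil-KO libraries differed by 10.8 to 38.7. The placement of replicates 1 and 2 below and 3 to 5 above every Smad4 Vil-KO library, seen for these 3 genes, was met by 0.85% of all genes tested, and the reverse by 0.857%, and it is a description chosen after the values were seen.

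**Figure D4:**
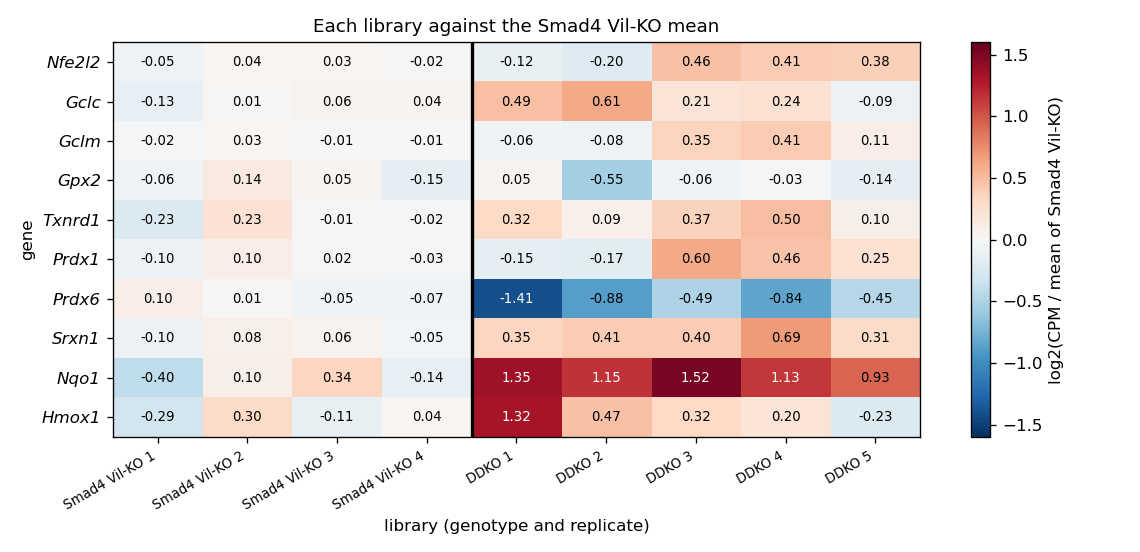
Log2 ratio of each library to the Smad4 Vil-KO mean (colour and printed value) for the 10 genes (rows) in the 9 libraries (columns). Nqo1 and Srxn1 are above 0 and Prdx6 is below 0 in all 5 DDKO columns, while Nfe2l2, Gclm and Prdx1 are below 0 in DDKO replicates 1 and 2 and above 0 in replicates 3 to 5.

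The wider pathway was described by 7 lists of genes by role. Without the 10 genes above, 87 listed genes were tested, of which 10 were called higher and 5 lower (17.2% called, against 13.3% of all genes), with a median log2 fold change of 0.06. Under other settings the count is given beside the share of all genes called in the same fit. It was 7 (6 higher and 1 lower), 9 (6 and 3), 9 (9 and 0) and 10 (7 and 3) when Smad4 Vil-KO replicate 1, 2, 3 or 4 was left out, where 6.82%, 8.08%, 5.69% and 7.93% of all genes were called. Without DDKO replicate 4 it was 8 (7 and 1, with 8.86% of all genes). It was 24 (17 and 7) with limma-voom and 29 (20 and 9) in the 6 libraries without many Y-linked counts, where 20% and 19.4% of all genes were called. The counts of the single lists below stand against 6.76% of all genes called higher and 6.54% called lower over the 9 libraries.

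Genes that handle quinones, carbonyls and conjugates held 7 of the 18 calls over all role lists, the 10 genes included. Of 19 tested, 6 were called higher and 1 lower (median log2 fold change 0.50), and without Nqo1 6 of 18 were called, with a median of 0.40. Mgst1, a membrane glutathione transferase that protects lipids, rose from 140.2 ± 15.7 (SD, n = 4) to 264 ± 63.7 CPM (SD, n = 5), with a log2 fold change of 0.91 and an edgeR adjusted p of 0.00711. The aldo-keto reductase Akr1c13 (log2 fold change 0.69, edgeR adjusted p of 0.00740) and the glutathione transferase Gsta3 (0.81, edgeR adjusted p of 0.00993) rose as well, and all 3 were called in 19 of 19 alternatives. The carbonyl reductase Cbr3 was called higher (0.56, edgeR adjusted p of 0.0475) in 10 of 19 alternatives, but not in the 6 libraries without many Y-linked counts (0.57, edgeR adjusted p of 0.0761).

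Of the 4 listed export pumps of the Abcc family, Abcc2 was called higher and Abcc3 lower. Abcc2, which carries glutathione conjugates across the apical membrane, went from 0.593 to 1.11 CPM in Smad4 Vil-KO to 4.03 to 18.2 CPM in DDKO (log2 fold change 3.84, SE 0.45, edgeR adjusted p of 0.000823). Abcc3, on the basolateral side, fell from 281 ± 30.5 (SD, n = 4) to 207 ± 25.8 CPM (SD, n = 5), with a log2 fold change of -0.44 and an edgeR adjusted p of 0.0245, a call that 15 of 19 alternatives kept. Abcc1 (-0.28, edgeR adjusted p of 0.111) and Abcc4 (0.23, edgeR adjusted p of 0.423) were not called.

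Of 14 tested genes of glutathione synthesis and recycling, 2 were called higher and 2 lower, with a median log2 fold change of 0.19. Gsr, the reductase that returns oxidised glutathione to its reduced form, stood at 151, 159.8, 156 and 132 CPM in Smad4 Vil-KO and at 292, 206, 199.7, 230.1 and 192 CPM in DDKO. The groups did not overlap (log2 fold change 0.58, SE 0.13, edgeR adjusted p of 0.0145), and 18 of 19 alternatives kept the call. Ggt1, which cleaves glutathione outside the cell, rose from 0.705 to 4.90 CPM in Smad4 Vil-KO to 9.52 to 52.8 CPM in DDKO (log2 fold change 3.20, edgeR adjusted p of 0.00509). Cbs, which leads homocysteine towards cysteine, fell by 0.76 on the log2 scale, and Oplah, which returns oxoproline to glutamate, fell by 0.65, with edgeR adjusted p of 0.0231 and 0.0389. The call of Cbs was kept in 16 and that of Oplah in 11 of 19 alternatives. The cystine carrier Slc7a11 stood at 19.97 ± 5.58 (SD, n = 4) and 34.6 ± 10.2 CPM (SD, n = 5) and missed the threshold (log2 fold change 0.80, edgeR adjusted p of 0.0544). It was called in 7 of 19 alternatives, among them DESeq2 (adjusted p of 0.0125), limma-voom (0.0154) and the 6 libraries without many Y-linked counts (log2 fold change 0.99, edgeR adjusted p of 0.0113).

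Among 20 tested genes of the thioredoxin, peroxiredoxin and glutaredoxin systems, Srxn1 and Prdx4 were called higher and Prdx6 lower, with a median log2 fold change of -0.04. Thioredoxin itself, Txn1, was at 1152 ± 38.4 (SD, n = 4) and 1197 ± 202 CPM (SD, n = 5). Of 9 tested genes of NADPH supply, G6pdx, the first enzyme of the pentose phosphate pathway, was called higher (log2 fold change 0.31, edgeR adjusted p of 0.0352, kept in 10 of 19 alternatives). Of 10 tested genes of haem and iron, Alas1, the first enzyme of haem synthesis, was called higher (0.36, edgeR adjusted p of 0.0269, kept in 13 of 19 alternatives).

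Among the 9 tested genes for removal of peroxide and superoxide, 0 were called by edgeR, 2 had an unadjusted p under 0.05, and DESeq2 and limma-voom called 1 each. The median log2 fold change of this list was -0.06. Catalase, Cat, stood at 65.4 to 69.0 CPM in Smad4 Vil-KO and at 57.5, 65.3, 101, 96.8 and 104 CPM in DDKO, where replicates 1 and 2 were low and 3 to 5 high, as for Nfe2l2. Its log2 fold change was 0.33, with an edgeR adjusted p of 0.213. In the 6 libraries without many Y-linked counts it was 0.56 (edgeR adjusted p of 0.00138), and limma-voom over all 9 gave 0.43 (adjusted p of 0.0308).

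Of the 15 tested genes that control Nrf2, 2 (13.3%, the share over all genes as well) were called lower and 0 higher by edgeR, where 1 of the genes above 0 had an unadjusted p under 0.05. DESeq2 called 3 of the 15 and limma-voom 2, where these tools called 15.8% and 20% of all genes, and the median log2 fold change was -0.04. Btrc, a substrate receptor of a ubiquitin ligase that can target Nrf2 independently of Keap1, fell by 0.67 on the log2 scale (edgeR adjusted p of 0.0291), a call that 11 of 19 alternatives kept. Syvn1, a ubiquitin ligase of the endoplasmic reticulum also known to target Nrf2, fell by 0.35 (edgeR adjusted p of 0.0182, kept in 15 of 19). Bach1, which competes with Nrf2 for its elements, did not overlap between the groups (78.4 to 85.3 against 87.9 to 138 CPM) but had an edgeR adjusted p of 0.104, at a log2 fold change of 0.37. The partner Mafg had a log2 fold change of -0.27, with an edgeR adjusted p of 0.176. In the 6 libraries without many Y-linked counts, the log2 fold changes of Bach1, Mafg and Keap1 were 0.15, -0.07 and -0.25, and none was called by edgeR.

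Markers of cell types differed between the same groups. Of 10 tested small-intestine enterocyte markers, 8 were called higher in DDKO, and the summed level of the 12 listed genes was 397 to 493 CPM in Smad4 Vil-KO and 714 to 1378 CPM in DDKO. The summed level of 7 secretory markers was 5314 to 8100 CPM in Smad4 Vil-KO and 1976 to 3115 CPM in DDKO, most of it from Muc2, the mucin of goblet cells, which was lower by 1.62 on the log2 scale. In the same list the enteroendocrine granins Chga and Chgb were called higher, by 1.87 and 1.58 on the log2 scale (edgeR adjusted p of 0.000405 and 0.00165). Of the 13 leukocyte markers tested, edgeR called 0 (0 with an unadjusted p under 0.05; DESeq2 called 1 and limma-voom 0), with sums of 66.4 to 168 and 55.9 to 126.3 CPM. The 8 colonocyte markers summed to 8547 to 9736 CPM in Smad4 Vil-KO and 5667 to 9463 CPM in DDKO (median log2 fold change -0.35). The sodium-proton exchanger Slc9a3 was the 1 of these called, as higher (1.11, edgeR adjusted p of 0.0188). The 8 crypt and cycling markers summed to 855 to 1018 and 901 to 1314 CPM, most of it from the cycling genes Mki67 and Top2a. Of this list Olfm4 was the 1 called, as higher (5.14, edgeR adjusted p of 0.00568), while the stem cell markers Lgr5 (-0.66, edgeR adjusted p of 0.136) and Ascl2 (-0.24, 0.429) had log2 fold changes below 0 and were not called. The stromal, vessel and muscle list (5 of 11 genes tested, 0 called by edgeR and limma-voom, 2 by DESeq2, 2 with an unadjusted edgeR p under 0.05) summed to 13.3 to 30.5 and 21.2 to 61.3 CPM, and no marker of these lists was at 0 in all libraries. Apoa1, of the enterocyte list, had 0 counts in all 4 Smad4 Vil-KO libraries. The part of these shifts in the values of Nqo1, Prdx6, Srxn1, Gsr, Ggt1, Abcc2 and the other genes was not tested, and in bulk RNA a change in the share of a cell type and a change in its RNA per cell cannot be told apart.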

How the data were processed

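RNA-seq of colonic IECs was analysed from 4 Smad4 Vil-KO and 5 DDKO libraries after AOM/DSS treatment, grouped by the genotype in the labels. The authors deposited whole-number counts per gene symbol, without normalization. The submitters' processing notes name HISAT2 2.0 and mm10, and the counting program, its annotation and its use of strand are not given in the sources used here. Of 46095 symbols, 27 had been turned into dates and were tested without a name.

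Counts were filtered with filterByExpr by genotype (14593 genes), scaled with TMM and tested with edgeR 4.0.16 (quasi-likelihood, R 4.3.3) over all 9 libraries, without covariates. Adjusted p-values are Benjamini-Hochberg over all genes tested, and calls are at 0.05. Standard errors were taken as the size of the log2 fold change divided by the square root of F. CPM values are counts relative to the TMM-scaled library total, and CPM per kb uses the exon union of GENCODE M21. That annotation, on GRCm38, also gave the coordinates of genes. The Gclm to Gclc and Keap1 to Nfe2l2 ratios were compared by two-sided exact permutation tests. The chi-square of a pair of libraries compared their counts with those expected from gene and library totals, and was divided by the number of genes. The fit was tested on simulated counts.

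The 10 genes, the role lists and the marker lists were chosen with earlier results of these data known. All 10 genes are described. Of the role lists, the genes with an adjusted p under 0.05 are named, at most the 4 with the smallest p per list, plus Keap1, Bach1, Mafg, Slc7a11, Gsr, Txn1, Cat and G6pdx in any case. Of the list of quinone, carbonyl and conjugate handling, Gsta3, Cbr3, Abcc3, Abcc1 and Abcc4 were named beyond this rule after their values were seen. Fbxw11, of the list of genes that control Nrf2, was added in the same way. The alternatives were DESeq2 1.42.0, limma-voom with quality weights (limma 3.58.1), robust dispersion, DESeq2's size factors, library size alone, no filter, a minimum of 10 counts in all libraries, leaving out each library, the replicate number as a block, a term for Y-linked counts (above 1000 counts in a library), the libraries without many Y-linked counts, and calls at more than 1.5-fold with p below 0.05 before adjustment.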

Additional observations from a re-analysis of the deposited data

Results flagged for a closer look

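Srxn1 in DDKO replicate 4 stood apart from its group, at 231 CPM where the other 4 DDKO libraries were at 178 to 191 CPM. Its gap to the nearest library was 0.755 of the whole range of the group, above the critical value of 0.71 for 5 samples. Of 24 groups of values examined this was the 1 that passed, and chance passes about 1 in 20 such groups.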

How the results depend on the processing

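The direction of all 10 genes held in 19 of 19 alternative fits. At an adjusted p under 0.05, Nqo1 and Srxn1 were called in all 19, and Prdx6 in all but the fit with a term for Y-linked counts. The rule of more than 1.5-fold with an unadjusted p kept Nqo1 and Prdx6 and lost Srxn1. The count of these genes called was 3, where 13.3% of all genes tested were called. It was 7 in the 6 libraries without many Y-linked counts, where 19.4% of all genes were called. With single libraries left out it was 3 to 4, where 5.69% to 18.6% of all genes were called. The count over all genes, 1941, became 2924 with limma-voom, 1285 with the term for Y-linked counts and 2930 in the libraries without many Y-linked counts, and it ran from 847 to 2696 with 1 library left out. Leaving out Smad4 Vil-KO replicates 1 to 4 in turn gave 1018, 1204, 847 and 1183, and leaving out DDKO replicate 4 gave 1273. The difference in the log2 ratio of Gclm to Gclc turned from -0.15 to 0.15 in the libraries without many Y-linked counts. The causes were not tested. Deviations of libraries with the same number correlated at -0.0955, -0.104, 0.0196 and 0.0878, so the numbers were not taken to pair mice. With the replicate block, 1618 genes (11.1% of those tested) and 3 of the 10 were called. The Gclm to Gclc and Keap1 to Nfe2l2 differences within numbers 1 to 4, which leave out DDKO replicate 5, were -0.23 and -0.22. These were the same as without that library and no block. Hmox1 rests on 52 to 184 counts per library, the fewest of the 10, and the other 9 genes on at least 720.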

Other observations

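Over the 9 libraries, the genes most like each of the 10 in log2 CPM were named by Pearson's r, as a description that includes the difference between the genotypes. For Nfe2l2 they were Cct4, a chaperonin subunit (0.98), and Prdx1 (0.96). For Prdx6 they were Acad11, an acyl-CoA dehydrogenase (0.99), and Tppp (0.98). Those for Nqo1 were Ptpn6, a tyrosine phosphatase, and Clcn1, both at 0.96. Gnl3 (0.98) and Mybbp1a (0.97), both nucleolar proteins, were the nearest to Hmox1. Srxn1 went most closely with Med17, a Mediator subunit, and Cst6, both at 0.98. Nearest to Gclc were 4732491K20Rik (0.99) and Lrrc16a (0.98), and nearest to Gclm were Lactb2 and Gm41863, both at 0.98. Gpx2 had Wdr18 (0.98) and Gm10131 (0.96). Txnrd1 had Wnk2 (0.97) and Ripk3 (0.96), and Prdx1 had Erlin2 (0.98) and Cyb5a (0.97). The 9 points share the 2 genotypes and their library sizes, and the 2 nearest of 14593 genes were taken in each case.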
